A study of Mus musculus with 8 samples.

Results

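Cytotoxic lymphocytes, chiefly natural killer (NK) cells and activated CD8 T cells, kill target cells with the content of lytic granules. Perforin opens the membrane of the target, and the granzymes, a family of serine proteases, enter through it and cleave proteins that start cell death. The same cells can also kill through the death ligand FasL, and they release the cytokine interferon-gamma and the chemokine Ccl5. This account describes 10 transcripts of that machinery in mouse peripheral blood: the granzyme genes Gzma, Gzmb, Gzmk and Gzmm, the perforin gene Prf1, the granule membrane protein gene Nkg7, the granule cathepsin gene Ctsw, the chemokine gene Ccl5, the death ligand gene Fasl and the cytokine gene Ifng. The genes were taken by their symbols from a count table of 21878 symbols, and 10 of the 10 were found.

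The blood came from 8 female wild-type C57BL/6 mice aged 6 to 8 weeks. The stress group (n = 4) was restrained for 6 hours in a ventilated tube without food or water. The control group (n = 4) consisted of littermates that stayed in their cage and also had no food or water, so both groups fasted. Whole blood was sequenced without sorting, so each level mixes the number of cytotoxic cells with the RNA per cell, and fewer cells of a type and less RNA per cell cannot be told apart. Levels are given in CPM, read counts scaled to a common library size, with TMM factors that treat the bulk of the genes as unaltered. A gene was tested when it had at least 10 counts in at least 4 samples, and it was said to rise or fall at an adjusted p below 0.05 in edgeR's quasi-likelihood test.

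Libraries of control mice held 31471145 to 39014775 counts in total, and those of stressed mice 25978683 to 29655725. Haemoglobin transcripts took 51.9% to 63.8% of the control counts and 61.2% to 75.5% of the stress counts. Stress replicate 3 had the fewest counts outside the haemoglobin genes, 6352711, and control replicate 4 had the fewest of the control group, 11409246. These same 2 libraries carried the highest level of Gzma, Gzmb, Prf1 and Ccl5 in their group, and the part of depth in this was not tested. Defining markers of the cells in question were present in 8 of 8 libraries: the NK cell markers summed to 89.8 to 154 CPM and the T cell markers to 514 to 647 CPM.

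For 3 members that varied together from sample to sample, the 250 bases before the transcription start are shown, as listed by RefSeq for GRCm38.p6, since a reader may want to compare the regulatory letters of genes with a common pattern. Each is read 5′ to 3′ on the strand of its gene, and capitals mark matches to any of 6 motifs, searched on both strands.
Gzma, chr13:113100982-113101231, minus strand: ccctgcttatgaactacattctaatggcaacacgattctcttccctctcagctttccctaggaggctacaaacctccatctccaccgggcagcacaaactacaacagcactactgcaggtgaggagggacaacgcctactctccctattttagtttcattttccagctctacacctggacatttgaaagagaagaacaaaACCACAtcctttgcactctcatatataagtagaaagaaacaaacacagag
Gzmb, chr14:56262335-56262584, minus strand: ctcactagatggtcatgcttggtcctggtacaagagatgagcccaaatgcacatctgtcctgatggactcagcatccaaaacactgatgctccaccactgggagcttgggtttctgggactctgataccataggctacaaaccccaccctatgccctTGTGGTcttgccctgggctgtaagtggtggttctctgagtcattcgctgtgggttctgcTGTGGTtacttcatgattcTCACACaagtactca
Prf1, chr10:61297586-61297835, plus strand: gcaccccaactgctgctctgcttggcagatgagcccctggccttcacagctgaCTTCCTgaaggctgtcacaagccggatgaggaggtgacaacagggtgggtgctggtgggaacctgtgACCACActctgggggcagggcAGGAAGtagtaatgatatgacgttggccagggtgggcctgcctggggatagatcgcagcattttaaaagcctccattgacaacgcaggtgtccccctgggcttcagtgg

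The RUNX letters TGTGGT occurred in all 3 of these windows on one strand or the other, at base -50 of Gzma, at bases -93 and -34 of Gzmb and at base -130 of Prf1, where -1 is the base just before the start and the position is that of the first letter. Gzmb also held the T-box letters TCACAC at base -15, and Prf1 held ETS letters (CCGGAA or AGGAAG) at bases -197 and -109. No marked letters of different motifs overlapped in these windows. RefSeq windows were matched for 8 of the 10 genes, all but Ctsw and Ccl5. Over the 8 windows nearest the annotated gene start, the RUNX letters were found in 5, ETS letters in 5, T-box letters in 3 and the STAT letters TTCNNNGAA in 3. The window used for Gzmk lies 44943 bases from the GENCODE start of that gene, and it supplies 1 of the T-box and 1 of the ETS windows. Among 32851 promoter windows of the same length, the shares with these letters were 14.0%, 38.2%, 12.3% and 7.02%. The palindromic glucocorticoid receptor motif and the cAMP response element TGACGTCA were found in 0 of the 8 windows, and 0.387% and 1.55% of all windows hold them.

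Compared with the control group, none of the cytotoxic genes passed the test in the stress group. Of the 10 members, 8 passed the count filter, and edgeR called 0 higher and 0 lower, against a background of 10.4% higher and 3.69% lower among 11718 tested genes. Without adjustment, at p under 0.05, 0 members were higher (background 18.2%) and 1 was lower (background 13%), namely Ctsw. DESeq2 and limma-voom also called 0 in either direction, and at the thresholds of the study (absolute log2 fold change above 1 and adjusted p below 0.01) 0 members passed, against 1.69% of all tested genes higher and 0.0171% lower. The median log2 fold change was -0.02 over the tested members and -0.02 over every gene tested. Of the 8, 4 lay above 0 and 4 below, against 52.9% below 0 over every gene tested. In 0 of the 8 did every stress sample lie on one side of every control sample, an order that 11.1% of all tested genes showed upward and 9.87% downward.

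**Figure D1:**
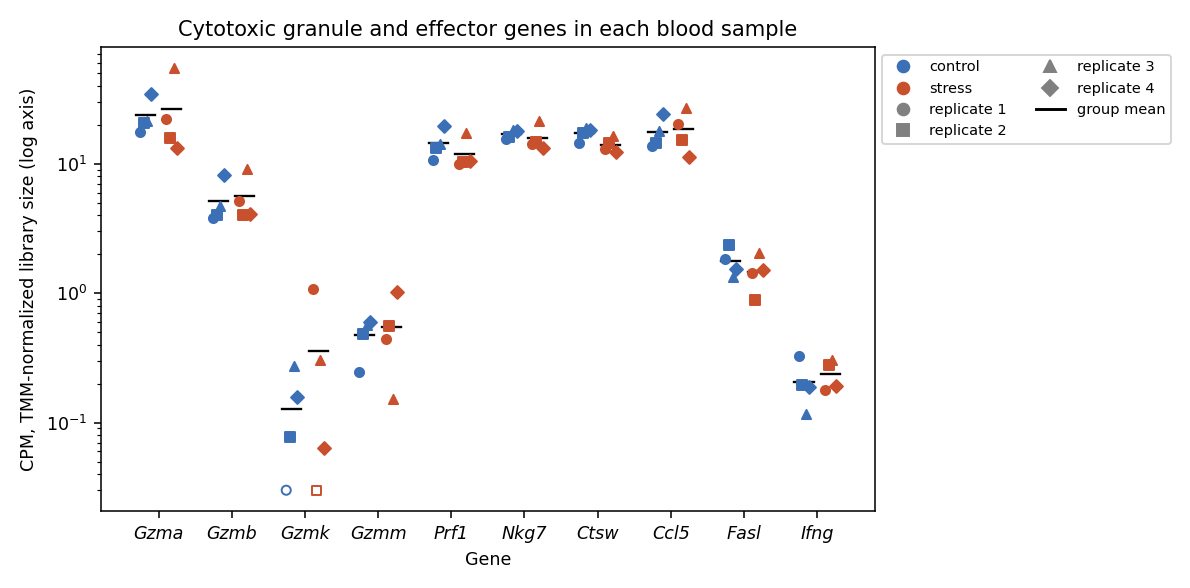
Levels of the 10 cytotoxic genes in each of 8 blood samples, in CPM on the TMM-normalized library size (vertical axis, logarithmic), with 1 symbol shape per replicate number, control in blue, stress in orange and a black bar at the group mean (n = 4). Open symbols at the bottom are samples with 0 counts. The groups overlapped for every gene, while 11.1% of all tested genes lay without overlap higher in stress and 9.87% lower. Control replicate 4 and stress replicate 3 lay highest in their group for Gzma, Gzmb, Prf1 and Ccl5.

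Among the granzymes, the 2 abundant ones were Gzma and Gzmb. Gzma encodes a tryptase that is stored in NK cell granules at rest (GRCm38 chromosome 13, 113093825 to 113100981, minus strand). Its level was 17.7, 20.8, 21.3 and 34.8 CPM in control replicates 1 to 4 and 22, 16.0, 54.6 and 13.2 CPM in stress replicates 1 to 4. Both the highest and the lowest of the 8 values came from the stress group. The group means were 23.7 ± 7.63 and 26.4 ± 19.1 CPM (SD, n = 4 each), and the log2 fold change came to 0.14 (standard error 0.38, 95% interval -0.69 to 0.97) with an adjusted p of 0.842. Without stress replicate 3 the log2 fold change of Gzma was -0.45 (adjusted p = 0.336), and without control replicate 4 it was 0.42.

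Gzmb encodes the aspartate-cleaving granzyme that activates caspases (chromosome 14, 56258838 to 56262260, minus strand). It was measured at 3.80, 4.0, 4.74 and 8.20 CPM in the control samples and at 5.13, 4.03, 9.18 and 4.1 CPM in the stress samples, in order of replicate. Each group had 1 sample well above its others, control replicate 4 and stress replicate 3. The log2 fold change of Gzmb was 0.09 (standard error 0.30, adjusted p = 0.878, 95% interval -0.57 to 0.75), so a rise of Gzmb by over 1 on the log2 scale lay outside the interval. It turned to -0.20 without stress replicate 3 and to -0.02 without control replicate 2.

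Gzmm, a granzyme of NK cells that cleaves after long aliphatic residues (chromosome 10, 79689020 to 79695261, plus strand), was scarce. It had 9, 25, 39 and 19 counts in the control samples and 10, 12, 2 and 32 in the stress samples. On the CPM scale Gzmm ran from 0.244 to 0.599 among controls and from 0.152 to 1.02 among stressed mice, and unlike Gzma it was lowest in stress replicate 3. Its log2 fold change was 0.29 (standard error 0.49, adjusted p = 0.727), and -0.23 without stress replicate 4. The 95% interval of Gzmm, from -0.76 to 1.34, left room for changes of either sign.

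Gzmk, the other tryptase and a neighbour of Gzma on chromosome 13 (113171608 to 113225908, minus strand), did not pass the count filter. It had 0, 4, 19 and 5 counts in the control samples and 24, 0, 4 and 2 in the stress samples. A count of 0 allows up to 3 counts (a one-sided limit), or 0.0815 CPM in control replicate 1 and 0.139 CPM in stress replicate 2. The 24 counts of stress replicate 1 had an exact two-sided 95% Poisson interval of 15.4 to 35.7, which covers counting error only and lies above the counts of the other stress samples. With the count filter, a difference between the groups was not tested for Gzmk. The other granzymes of the chromosome 14 cluster gave almost no reads: Gzmc had at most 8 counts in a sample, and Gzmd, Gzme, Gzmf, Gzmg and Gzmn had 0 in 8 of 8 samples.

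Prf1 encodes perforin, the pore-forming protein without which granzymes do not reach the target's cytosol (chromosome 10, 61297833 to 61304680, plus strand). It was measured at 10.8, 13.3, 14.2 and 19.7 CPM in control replicates 1 to 4 and at 9.90, 10.3, 17.3 and 10.5 CPM in stress replicates 1 to 4. In the stress group 3 samples lay together just below the lowest control sample, and replicate 3 lay above 3 of the 4 controls. The log2 fold change of Prf1 was -0.29 (standard error 0.21, adjusted p = 0.376, 95% interval -0.74 to 0.17). Without stress replicate 3 it was -0.48 (adjusted p = 0.101) and without control replicate 4 -0.08 (0.833).

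Nkg7 encodes a membrane protein of cytotoxic granules that takes part in their release (chromosome 7, 43437073 to 43438249, plus strand). It stood at 15.5, 16.2, 18.2 and 17.8 CPM in the control samples and at 14.2, 14.7, 21.3 and 13.3 CPM in the stress samples. The control samples lay close together, with a coefficient of variation of 7.63%, and 3 of the 4 stress samples were below all of them. The log2 fold change of Nkg7 was -0.11 (standard error 0.14, adjusted p = 0.647), and its 95% interval, -0.41 to 0.20, was the narrowest after that of Ctsw. It was -0.25 without stress replicate 3 (adjusted p = 0.111).

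Ctsw encodes cathepsin W, a cysteine protease made in NK cells and CD8 T cells (chromosome 19, 5465043 to 5468507, minus strand). Its level was 14.6, 17.4, 19.0 and 18.2 CPM in the control samples and 13, 14.4, 16.5 and 12.4 CPM in the stress samples. Only stress replicate 3 exceeded a control sample, replicate 1. The means of Ctsw were 17.3 ± 1.91 and 14.0 ± 1.83 CPM (SD, n = 4 each), and the log2 fold change of -0.31 (standard error 0.12, 95% interval -0.57 to -0.05) had an unadjusted p of 0.0248 and an adjusted p of 0.106. Leaving out stress replicate 3 brought Ctsw to -0.37 with an adjusted p of 0.0456, the single member called in that fit, where 3.14% of all tested genes were lower. Over all 18 alternative fits the adjusted p of Ctsw ranged from 0.00829 to 0.265, and its log2 fold change stayed below 0 in each. Its annotated exons share 9 bases with those of Fibp on the opposite strand.

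Among the released and surface effectors, Ccl5 was the most abundant. This chemokine attracts T cells and monocytes, and in blood it is carried by platelets as well as by cytotoxic lymphocytes (chromosome 11, 83525778 to 83530518, minus strand). Ccl5 was measured at 13.6, 14.5, 18 and 24.1 CPM in the control samples and at 20.3, 15.2, 26.9 and 11.4 CPM in the stress samples. The stress samples spread on both sides of the controls, and the log2 fold change was 0.06 (standard error 0.25, adjusted p = 0.904, 95% interval -0.48 to 0.60). The 8 platelet markers rose in 8 of 8 over the same samples, a median of 1.00 on the log2 scale and no overlap of their summed level (1307 to 1983 CPM among controls, 3029 to 3664 among stressed mice). On total counts alone 0 of these 8 were called and their median was 0.23.

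Fasl, the ligand of the death receptor Fas (chromosome 1, 161780689 to 161788495, minus strand), stood at 1.85, 2.34, 1.33 and 1.54 CPM in the control samples and 1.43, 0.881, 2.05 and 1.5 CPM in the stress samples. Its log2 fold change was -0.29 (standard error 0.29, adjusted p = 0.526, 95% interval -0.92 to 0.33), with 19 to 121 counts behind each value. The lowest value of Fasl was that of stress replicate 2, and without it the log2 fold change was -0.09. Ifng, the gene of interferon-gamma (chromosome 10, 118441046 to 118445892, plus strand), had 12, 10, 8 and 6 counts in the control samples and 4, 6, 4 and 6 in the stress samples and did not pass the filter. Its mean level in the control and stress samples was 0.206 ± 0.0876 and 0.238 ± 0.0622 CPM with TMM (SD, n = 4 each). On total counts alone it was 0.265 ± 0.0877 and 0.178 ± 0.0342 CPM, so the direction depended on the scale. With the count filter, a difference between the groups was not tested for Ifng. Of the exon bases of Ifng, 25.9% also belong to the overlapping gene Gm49751 on the same strand.

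Set side by side per kilobase of annotated exon, the mean levels over the 8 samples were 24.9 CPM per kilobase for Gzma, 18.7 for Ccl5, 17.9 for Nkg7, 8.30 for Ctsw, 5.13 for Prf1, 3.76 for Gzmb, 0.834 for Fasl, 0.346 for Gzmm, 0.175 for Gzmk and 0.171 for Ifng. Gzma was above Ccl5 in 8 of 8 samples. Ccl5 and Nkg7 could not be ordered, since Ccl5 was higher in 3 of 8, and neither could Gzmk and Ifng, where Gzmk was higher in 2 of 8. From Nkg7 down to Gzmm each gene was above the next in 8 of 8 samples, and Gzmm was above Gzmk in 6 of 8.

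The library scale shifted these values together with those of the other genes. With plain total counts as the library size, the median gene moved from -0.02 to -0.82 on the log2 scale, and the median of the 8 tested members to -0.88. On that scale 6 members were called lower (Gzma, Prf1, Nkg7, Ctsw, Ccl5 and Fasl) and 0 higher, against a background of 49.6% and 0.444%, and 8 of 8 lay below 0. Prf1 fell from 19.3 ± 5.15 to 8.95 ± 1.82 CPM of the total count (SD, n = 4 each), or -1.11 on the log2 scale (standard error 0.34, adjusted p = 0.0121), and Gzma from 31.0 ± 7.53 to 17.9 ± 6.99 (log2 fold change -0.80, adjusted p = 0.0457). With the haemoglobin genes left out and total counts for the rest, 3 members were lower, Prf1, Nkg7 and Ctsw, against 33.7% of all tested genes, and the median of all tested genes was -0.43. Relative to the median gene, the median of the members was at 0.00058 with TMM, -0.06 on total counts and -0.02 without the haemoglobin genes.

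**Figure D2:**
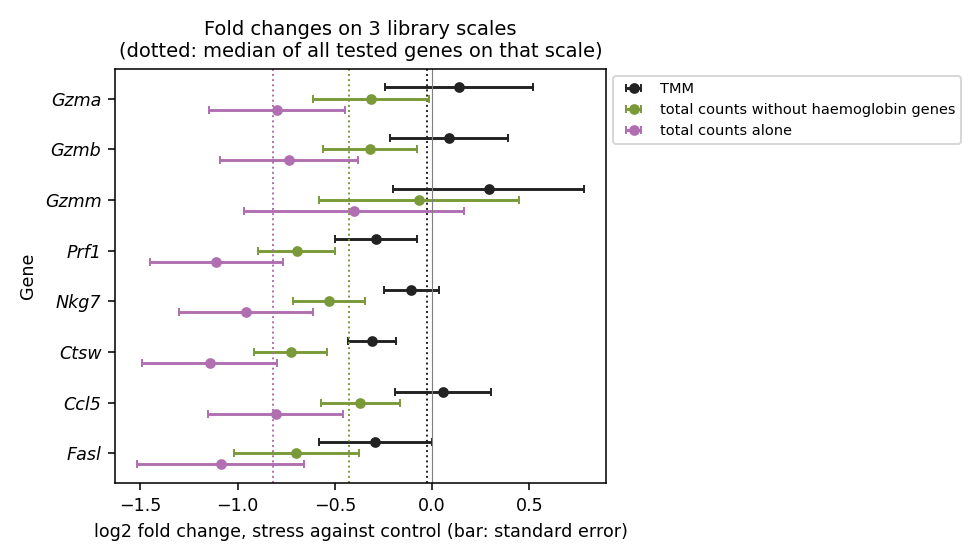
Log2 fold changes (stress against control, points) with their standard errors (bars) for the 8 tested cytotoxic genes on 3 library scales. Dotted lines mark the median of all tested genes on the same scale, -0.02 with TMM, -0.43 for total counts without the haemoglobin genes and -0.82 for total counts alone, and the points of each scale scatter on both sides of their own line.

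Levels relative to other transcripts of the same library do not depend on the scale, so each member was divided by the summed CPM of 14 NK cell markers (Ncr1, Klrb1c, Klrk1, Il2rb and others) and of 13 T cell markers (Cd3e, Cd4, Lck and others). Per 100 CPM of NK cell markers, Prf1 stood at 11.6 ± 1.1 among controls and 10.9 ± 0.800 among stressed mice (SD, n = 4 each). Over the 8 samples this ratio of Prf1 went from 9.92 to 12.8, a 1.29-fold range, while the level of Prf1 itself had a 1.99-fold range. Il2rb, the interleukin-2 receptor beta chain, which CD8 T cells also carry, made up 34.8% to 40.0% of the NK cell marker sum. Without it the range of the Prf1 ratio was 1.23-fold.

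Nkg7 per 100 CPM of NK cell markers was likewise even, from 11.6 to 15.2 over the 8 samples (1.31-fold, against 1.59-fold for its level). Gzma was less even, although its ratio had a 2.45-fold range against a 4.13-fold range of its level. The ratio of Gzma was 16.7 to 22.7 among controls and 22.1, 16.5, 36.1 and 14.7 in stress replicates 1 to 4. In stress replicate 3 there were 3.15 CPM of Gzma per CPM of Prf1, against 1.5 to 1.77 in the control samples and 1.26 to 2.23 in the other stress samples. For every one of the 10 members, the ratios to NK cell markers and to T cell markers overlapped between the groups. Ctsw came nearest to separation, at 2.60 to 3.20 per 100 CPM of T cell markers among controls and 2.22 to 2.79 among stressed mice.

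The sum of NK cell markers over that of T cell markers was 0.268 in control replicate 4 and 0.256 in stress replicate 3, and 0.149 to 0.208 in the other 6 samples. These are the 2 samples with the highest Gzma, Gzmb, Prf1 and Ccl5 of their group. The 2 axes of the ratio plot share a denominator, the T cell markers, so part of their relation is arithmetic.

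**Figure D3:**
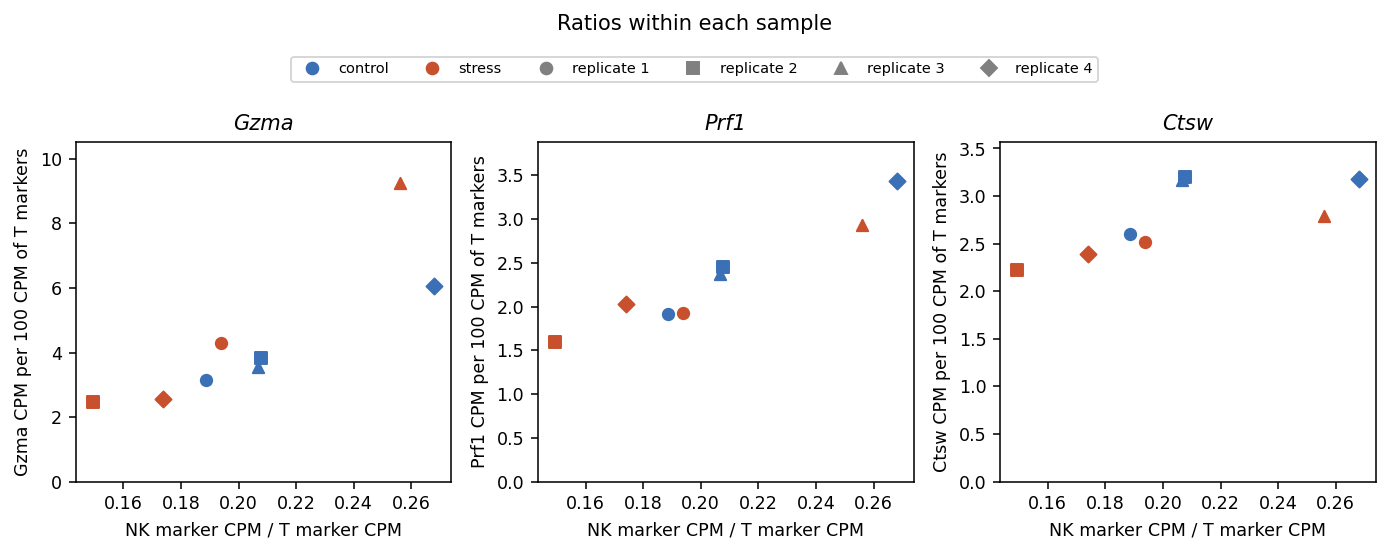
Gzma, Prf1 and Ctsw per 100 CPM of T cell markers (vertical axes, from 0) against the ratio of NK cell to T cell marker CPM (horizontal axis) in 8 blood samples, control in blue, stress in orange, 1 symbol shape per replicate number. Control replicate 4 and stress replicate 3 lie at the right, at 0.268 and 0.256, and the other 6 samples between 0.149 and 0.208, and the T cell markers are the denominator of both axes.

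Several members varied more between mice than the median tested gene. The coefficient of variation of Gzma was 32.3% among controls and 72.3% among stressed mice, that of Gzmb 39.5% and 43.4%, and that of Prf1 26.1% and 29.5%, where the median tested gene had 11.4% and 19.2%. Ctsw (11.1% and 13%) lay below the median gene in both groups, and Nkg7 (7.63% and 22.9%) below it among controls and above it among stressed mice. Taken as deviations from the group means over 8 samples, 6 of the tested members (Gzma, Gzmb, Prf1, Nkg7, Ctsw and Ccl5) correlated with each other at 0.68 to 0.94 in 15 of 15 pairs (Pearson's r of log2 CPM, median 0.83). Over the sample values themselves r was 0.41 to 0.93 (median 0.80). Control replicate 4 and stress replicate 3 were highest in their group for Gzma, Gzmb, Prf1 and Ccl5, and their part in these correlations was not tested. Gzmm correlated negatively with Gzma (r = -0.64), and Fasl correlated with the 6 at -0.0015 (Ctsw) to 0.43 (Gzma). The 6 genes were set apart after these values were seen, and genes of 1 library share its scale factor.

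The genes whose pattern was most like the mean z-score of the tested members over 8 samples were Il2rb (Pearson's r = 0.98, Spearman's rho = 0.95), Klra4 (0.96 and 0.90), Kif11 (0.95 and 0.90), Klra9 (0.94 and 0.93) and Thop1 (0.93 and 0.93). These are the genes with the highest values among all tested genes outside the members, so the size of r is a description. Kif11 (means of 0.726 CPM among controls and 0.686 among stressed mice) and Thop1 (1.60 and 1.23 CPM) were scarce. Il2rb, Klra4 and Klra9 are also on the list of NK cell markers. Klra4 and Klra9 encode Ly49 receptors of NK cells, whose family members have similar sequences that the counting could split, and Kif11 encodes a mitotic motor. With the 2 samples farthest from the median left out, r was 0.98 for Il2rb and 0.94 for Klra4. Between the groups Il2rb differed by -0.17 on the log2 scale (standard error 0.14, adjusted p = 0.422). For Prf1 alone the nearest patterns were those of Il2rb (r = 0.96), Thop1 (0.93) and Pigq (0.92). Without the 2 samples farthest from the median these were 0.89, 0.88 and 0.74, below Gimap1 (0.95) and Klra9 (0.93), so that order rests on those samples.

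The machinery around the granule was described with genes of known role. Of 7 genes for activation and inhibition of granzymes, 0 rose and 0 fell, with a median log2 fold change of 0.20 with TMM. On total counts alone 0 were called and their median was -0.61, against -0.82 for all tested genes. Of the 7, Ctsc, which removes the propeptide of granzymes, had 0.24 with TMM (standard error 0.12, adjusted p = 0.182). Serpinb6b, a serpin of the granzyme inhibitor family, had 0.28 (standard error 0.20, adjusted p = 0.368). Of 10 tested genes for granule matrix and exocytosis, 4 rose and 0 fell with TMM, but on total counts alone 0 were called higher and 2 lower (median log2 fold change 0.43 and -0.39, against -0.02 and -0.82 for all tested genes). The 3 of smallest p were Lamp2, a lysosomal membrane protein gene (log2 fold change 0.77, adjusted p = 0.00134), Stx11, a fusion protein gene of lytic granules (0.89, 0.00238), and Srgn, which encodes the granule proteoglycan serglycin (0.89, 0.00313). Myeloid cells and platelets also use these 3 genes, and neutrophil markers (7 of 8 higher, median 1.49) and classical monocyte markers (6 of 6, median 1.51) rose in the same samples. The median of the neutrophil markers was 0.73 and that of the monocyte markers 0.75 on total counts alone. Their part in the rise was not tested. The symbol Vamp7 of this list was not found in the count table.

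Other effector ligands had a median of -0.39 in 7 tested genes, with 0 called. On total counts alone 6 of the 7 were lower (median -1.15), where 49.6% of all tested genes were lower. Cd40lg, the T cell ligand of CD40, was at -0.41 (standard error 0.18, adjusted p = 0.135), and Lta, lymphotoxin alpha, -0.44 (0.22, 0.189). Of 6 receptors for the effectors, 1 rose and 0 fell: Ccr1, a Ccl5 receptor of neutrophils and monocytes, went from 8.75 ± 3.21 to 26.4 ± 6.16 CPM (SD, n = 4 each; log2 fold change 1.61, standard error 0.25, adjusted p = 0.00242). Fas, the receptor of Fasl, named for that role, had 0.42 (standard error 0.20, adjusted p = 0.163). Of 9 transcription factors of cytotoxic lymphocytes, 2 rose and 0 fell with TMM. On total counts alone 0 rose and 5 fell, against 0.444% higher and 49.6% lower over all tested genes. Those that rose with TMM were Nfil3 (1.56, standard error 0.26, adjusted p = 0.00249) and Zeb2 (0.61, 0.14, 0.0107). NK cell development needs Nfil3, which myeloid cells also express, and monocytes express Zeb2 too. Tbx21 (-0.14, adjusted p = 0.709) and Eomes (-0.16, 0.586), the T-box factors that drive the cytotoxic genes and are named for that role, were not called.

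Of 14 NK cell markers, 1 fell and 0 rose: Klrk1, the gene of the activating receptor NKG2D, went from 13 ± 2.36 to 9.58 ± 0.932 CPM (SD, n = 4 each; log2 fold change -0.44, standard error 0.14, adjusted p = 0.0487), a call that RLE factors in place of TMM did not make. The median of the NK cell markers was -0.21, with 10 of 14 below 0. Without stress replicate 3, which had the highest NK cell marker sum of its group, the median of these markers was -0.45 and 4 were called lower. Over all tested genes 3.69% were lower with all samples and 3.14% without that replicate. The markers Cd8a and Cd8b1 of CD8 T cells had log2 fold changes of -0.12 each (adjusted p = 0.429 and 0.477). Of 13 T cell markers 0 were called (median -0.06). On total counts alone, where 49.6% of all tested genes were lower, so were 11 of the 14 NK cell markers, 9 of the 13 T cell markers and both CD8 T cell markers. Lat, a signalling adaptor, was at 0.34 (standard error 0.18, adjusted p = 0.231), and Bcl11b at -0.25 (0.16, 0.311).

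Among cells that do not carry lytic granules, 4 of 8 B cell markers fell and 0 rose, led by Cd22 (log2 fold change -0.72, adjusted p = 0.00653), Blk (-0.51, 0.00743) and Pax5 (-0.61, 0.0337). On total counts alone 8 of 8 were lower, where 49.6% of all tested genes were lower. The neutrophil markers of smallest p were Clec4d (1.58), S100a8 (1.49) and S100a9 (1.5), those of classical monocytes F13a1 (1.27), Lyz2 (1.32) and Vcan (4.42), and those of platelets Gp1ba (0.90), Gp5 (1.00) and Treml1 (1.03). Basophils, mast cells and plasmacytoid dendritic cells can also hold granzyme transcripts. Of 6 basophil and mast cell markers 3 were tested and 1 rose, Gata2 (1.05, adjusted p = 0.00107), a factor that platelet precursors share, though on total counts alone 0 rose and 1 fell. The defining genes Mcpt8 and Prss34 had at most 10 and 8 counts in a sample, and neither passed the count filter. Prss34 had 0 counts in every stress sample and 0 to 8 in the control samples. Of 6 plasmacytoid dendritic cell markers 4 were tested and 0 called, with Tcf4 at -0.25 (adjusted p = 0.165) and Siglech at -0.98 (0.215). On total counts alone 3 of the 4 were lower, against 49.6% of all tested genes. Of the 7 tested haemoglobin genes 2 rose (0 without stress replicate 3), Hba-a2 and Hbq1a, whose near-identical copies make the split of reads uncertain.

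**Figure D4:**
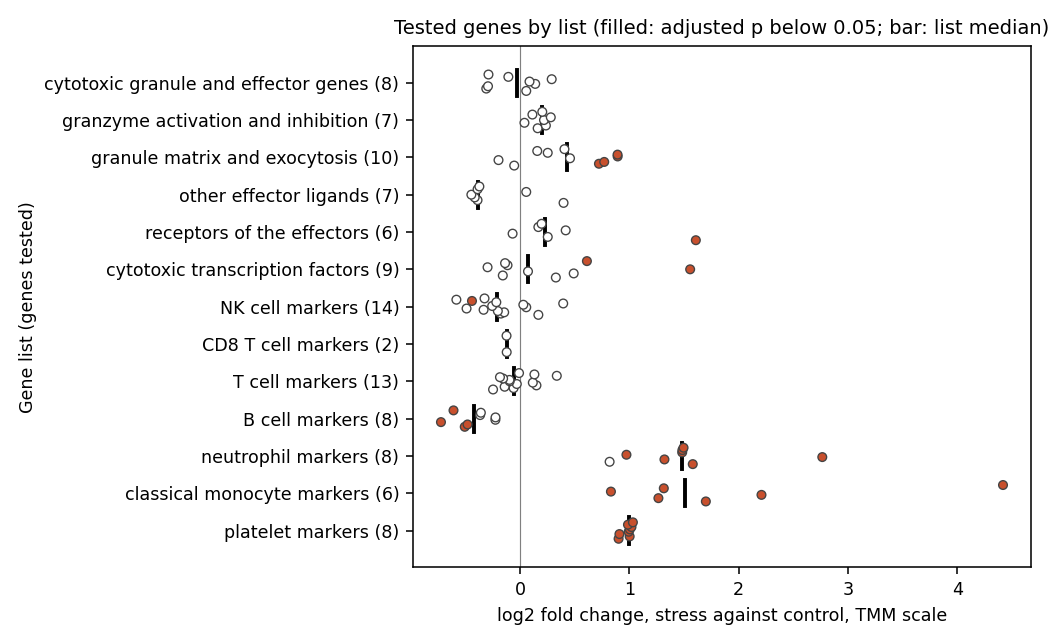
Log2 fold changes on the TMM scale (horizontal axis) of the tested genes of 13 lists (rows, number tested in brackets). Each point is a gene, filled at an adjusted p below 0.05 in edgeR's quasi-likelihood test, and the black bar is the list's median. The 8 cytotoxic genes hold no filled point and lie around 0, near the T cell markers, with the B cell markers to the left and the neutrophil, classical monocyte and platelet markers to the right.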

How the data were processed

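The authors deposited 1 table of whole-number read counts per gene symbol, a column per sample, without normalization. The submitters' processing notes name HISAT2, featureCounts and the build mm10. Versions, annotation and strand setting are not given in the sources used here, so overlapping genes are uncertain. Here R 4.3.3 and edgeR 4.0.16 were used: TMM factors, a filter of 10 counts in 4 or more samples that kept 11718 of 21878 genes, quasi-likelihood F tests with robust dispersion, and p-values adjusted by Benjamini-Hochberg across the kept genes. The standard error is the log2 fold change divided by the root of the test's F, and intervals use the moderated degrees of freedom. On simulated data 151 of 198 genes changed by 1 on the log2 scale were recovered among 11556 tested genes, with 6 false calls. Smaller changes, such as those estimated for the members, were not simulated. Alternatives were DESeq2 1.42.0, limma-voom (limma 3.58.1), other scalings, filters and thresholds, a replicate block and leaving out samples. Coordinates, exon lengths and overlaps come from GENCODE M21 on GRCm38 (mm10). Of the 75-base stretches of the members' transcripts, only those of Ifng occurred in another gene's transcripts (Gm49751, 16.2%). The 10 members and the lists were chosen with earlier results of these data known. The text names the members, Fas, Tbx21 and Eomes (chosen by role after their values were seen), up to 3 called genes of smallest p per direction in each list (otherwise up to 2 of smallest p), and the genes most like the members in pattern. The labels do not say that samples with the same number belong together.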

Additional observations from a re-analysis of the deposited data

Results flagged for a closer look

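In 120 groups of 4 values examined (levels of the members, summed markers and ratios, in each group), 9 had 1 sample farther from the others than Dixon's 95% critical value allows, and chance alone gives about 1 in 20. Many of these groups share the same genes and marker sums, so they are not independent and the 9 flags are not separate events. In stress replicate 3, Prf1 (17.31 CPM) and the summed NK cell markers (151.1 CPM) lay far above the other stress samples. In control replicate 4, Gzmb stood high at 5.333 per 100 CPM of NK cell markers and 1.429 per 100 CPM of T cell markers. In that same sample Nkg7 was low at 11.57 per 100 CPM of NK cell markers and 17.94 per 100 CPM of these markers without Il2rb, and the ratio of Ctsw to Prf1 was low at 0.9233. In control replicate 1, Ctsw was low at 2.602 per 100 CPM of T cell markers. In stress replicate 4, the summed neutrophil markers were high at 805.0 CPM. The causes were not tested.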

How the results depend on the processing

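The test called 1223 genes higher and 432 lower. With total counts alone it called 52 and 5811, with total counts without the haemoglobin genes 548 and 3945, at the thresholds of the study 198 and 2, and at an adjusted p below 0.01 at any fold 539 and 38. DESeq2 called 655 lower. Leaving out 1 sample gave 617 (without control replicate 2) to 1425 (without control replicate 4) higher and 81 (without control replicate 2) to 727 (without stress replicate 4) lower, the count lower moving by over 1.5 times without each sample but stress replicate 3, and the count higher without control replicates 2 and 3 (617 and 691). The cause was not tested. The 0 members called higher stayed 0 in every alternative. The 0 members called lower became 6 with total counts alone, 3 without the haemoglobin genes, and 0 to 1 with 1 sample left out. The median log2 fold change of the tested members (-0.02) was -0.88 with total counts alone and 0.079 with no count filter, where 10 members were tested, and -0.31 to 0.11 with 1 sample left out. Leaving out control replicate 4 and stress replicate 3 together, chosen after seeing the data, gave -0.25 and 0 called members, -0.24 for Gzma and 0.63 for Gzmm.

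With total counts alone the sign turned for Gzma (-0.80), Gzmb (-0.74), Gzmm (-0.40) and Ccl5 (-0.81), and without the haemoglobin genes for the same 4 (-0.31, -0.32, -0.070 and -0.37). With limma-voom it turned for Gzma (-0.11) and Ccl5 (-0.019). With 1 sample left out, Gzma ranged from -0.45 to 0.42, Gzmb from -0.20 to 0.42, Gzmm from -0.23 to 0.55 and Ccl5 from -0.15 to 0.28. Prf1, Nkg7, Ctsw and Fasl kept a value below 0 in every alternative.

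Samples with the same replicate number correlated at -0.16 to 0.0621 in their deviations from the group means, and 2 of 8 samples correlated best with their own number, so the numbers were not taken as pairs. With the replicate number as a block, 240 genes were lower, 0 members were called and Gzma was at -0.019. Depth limits Gzmk, Gzmm and Ifng most, with 0 to 39 counts per sample.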
